A study of Mus musculus with 24 samples.

Results

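RAW264.7 cells that had been exposed to P3C for 1 h were compared with untreated cells of the same time point. P3C is Pam3CSK4, a synthetic triacylated lipopeptide and ligand of TLR2, given at 1 μM, and RAW264.7 is a transformed mouse macrophage line. The comparison uses every array labelled P3C or Untreated with an incubation of 1 h, which is 4 of the 24 arrays in the study, 2 (A and B) in each group, described in the methods as duplicate biological samples. Each of them measured the transcripts of RAW264.7 cells on an Illumina mouse bead array. For reference, the P3C arrays at 1 h are set beside those of LPS (100 ng/ml, a ligand of TLR4) and R848 (1 μM, a ligand of TLR7) at 1 h, and beside P3C and untreated arrays at 2 and 4 h, again with 2 arrays per group. All groups are wild-type cells of 1 line, so the values describe this line and not primary macrophages.

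TLR2 sits at the cell surface and pairs with TLR1 to bind triacylated lipopeptides. The adaptors TIRAP and MyD88 then recruit IRAK kinases and TRAF6, which activate the IκB kinases, and with them NF-κB, together with the MAP kinases. The first genes to respond are transcribed from factors already present in the cell, and they include transcription factors, cytokines, chemokines and many of the proteins that later shut the signal down.

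Every value below is a log2 signal after quantile normalization over all 24 arrays, with n = 2 arrays per group, and a difference is P3C minus untreated unless another comparison is named. A gene was called, and is said to have risen or fallen, at an adjusted p (limma, Benjamini-Hochberg over all genes tested) under 0.05. Between 13101 and 13830 probes were detected on the 4 arrays, and the median signal ran from 103 to 114. The P3C arrays correlated with each other at r = 0.995 over the genes tested and the untreated arrays at r = 0.989, as a description. All 12 macrophage markers, among them Cd68, Itgam and Csf1r, passed the detection filter, with Itgam dim (6.82 to 6.98), and lay between -0.49 and 0.25, none of them called. Of 28 markers of other cell types, 11 had a named probe and only S100a8 was detected, at 0.08. None of the 14 reference genes tested, such as Gapdh (0.01) and Actb (0.34), was called. No slide held a P3C array together with an untreated array of 1 h, so a slide difference and the treatment cannot be told apart. With slide as a random block (correlation within slides 0.60), 240 of the 260 calls described next held. That fit draws on differences between slides, so it cannot remove a slide difference.

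After 1 h of P3C, 149 genes had risen (1.73% of those tested) and 111 had fallen (1.29%), and the rises were the larger changes. Of the called genes, 71 rose and 3 fell by 2-fold or more, and the median difference was 0.99 among the genes that rose and -0.57 among those that fell, against -0.01 over all genes. Counts in the gene lists below stand beside the shares of all genes, 1.73% and 1.29%. The lists were chosen with earlier results of these data known. On the quantile-normalized values the IκB family member Nfkbiz rose the most, followed by Errfi1, a brake on EGF receptor kinases, and the neutrophil chemokine Cxcl2. Under the other settings tried, Nfkbiz ranged from 4.75 to 5.85, Errfi1 from 4.44 to 5.07 and Cxcl2 from 2.89 to 6.03. The highest value of Cxcl2 exceeds that of Nfkbiz, so the order of the largest rises depends on the processing. Txnip, a thioredoxin-binding arrestin, had the largest fall. In all 260 called genes, both P3C arrays lay beyond both untreated arrays, as they did in 3983 of all genes tested. In bulk RNA, fewer cells that carry a transcript and less of it per cell cannot be told apart. Median scaling of the arrays in place of quantile normalization gave 56 higher and 8 lower genes, which is 87.5% higher against 57.3%; under it no called gene changed direction, the difference of a called gene moved by -0.04 to 0.26, and the median standard error over genes was 0.23 against 0.13. The counts were 94 higher and 36 lower without P3C array A, 96 and 36 without P3C array B, 98 and 62 without untreated array A and 103 and 47 without untreated array B.

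**Figure D1:**
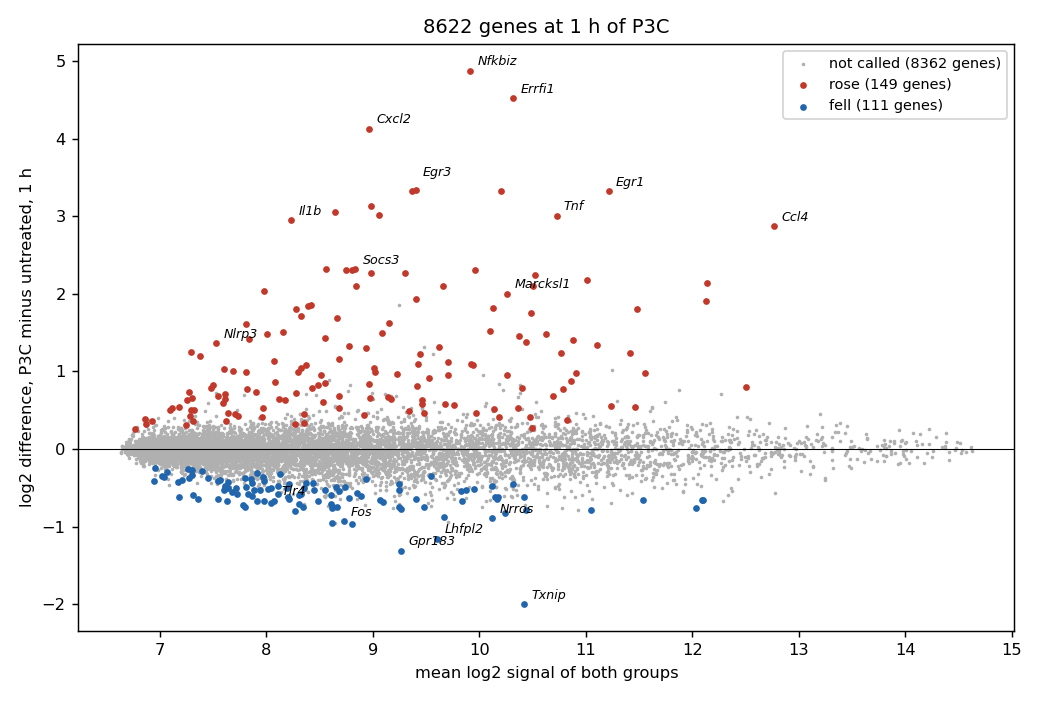
Log2 difference between P3C and untreated cells at 1 h (vertical) against the mean log2 signal of both groups (horizontal), one point per gene. The 149 genes that rose (red) reach 4.88, while only Txnip, Gpr183 and Lhfpl2 among the 111 that fell (blue) lie below -1.

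The genes with the largest rises were picked from these same arrays, so the distance between their 2 groups follows from that choice. Nfkbiz, a nuclear cofactor that NF-κB needs for a set of secondary genes, was at 7.34 and 7.60 in untreated arrays A and B and at 12.37 and 12.33 with P3C. Both P3C arrays stood far above, a 29.4-fold difference (4.88, SE 0.13, adjusted p = 1.12e-12). Errfi1 went from 8.02 and 8.09 to 12.55 and 12.61, which is 23.0-fold (4.53, SE 0.11, adjusted p = 9.5e-13). Cxcl2 went from 6.82 and 6.97 to 10.90 and 11.16 (4.13, SE 0.27, adjusted p = 1.03e-07), although a dimmer probe of Cxcl2 gave 1.66. Cd83, a surface protein of activated antigen-presenting cells, rose by 3.32 (SE 0.20, adjusted p = 4.81e-08), from 8.60 and 8.49 to 11.95 and 11.79. Phlda1, an early gene of growth factor signalling, rose by 3.13 (SE 0.50, adjusted p = 0.00138), from 7.46 and 7.37 to 10.46 and 10.63. Kdm6b, a demethylase of histone H3 and a known early target of NF-κB in macrophages, rose by 2.32 (SE 0.25, adjusted p = 2.75e-05). For Phlda1 the adjusted p was 0.0738 under median scaling, at a difference of 3.26.

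**Figure D2:**
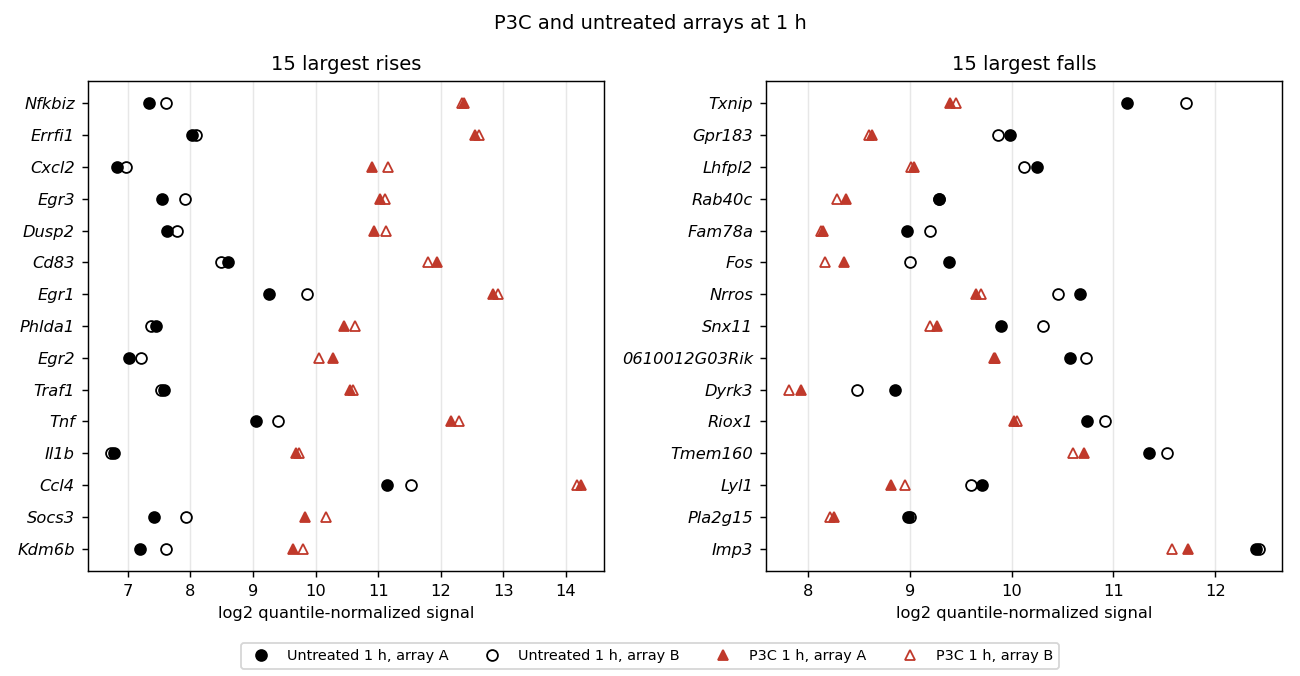
Log2 signal (horizontal) of the 15 genes with the largest rise (left) and the 15 with the largest fall (right) in each array, untreated in black circles and P3C in red triangles, array A filled and array B open. The genes were picked on these arrays among those whose 2 groups do not overlap. They run from Nfkbiz, at 12.37 and 12.33 with P3C against 7.34 and 7.60, to Txnip, at 9.39 and 9.45 against 11.13 and 11.71.

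The start-site regions of some of these genes carry the letters that early-response factors are known to bind, and 6 are shown because they belong to genes that rose and each holds such a match. The windows are RefSeq sequence of build GRCm38.p6, from 250 bases before to 50 bases after a transcript start, on the gene's strand, 5′ to 3′. Where RefSeq lists several starts (Tnfaip3, Egr2 and Errfi1), a window with a match is printed. Capitals mark a match, on either strand, to the NF-κB consensus, the serum response factor CArG box, the CRE (TGACGTCA), the AP-1 site (TGANTCA) or the E-box (CACGTG).
Cxcl2 (chr5:90903649-90903948, + strand): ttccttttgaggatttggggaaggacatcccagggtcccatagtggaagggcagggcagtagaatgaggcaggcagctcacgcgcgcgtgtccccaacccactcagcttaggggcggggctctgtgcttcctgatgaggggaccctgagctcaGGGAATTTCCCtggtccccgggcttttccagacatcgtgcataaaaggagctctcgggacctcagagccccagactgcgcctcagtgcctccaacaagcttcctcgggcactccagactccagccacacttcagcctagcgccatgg
Nfkbia (chr12:55492598-55492897, - strand): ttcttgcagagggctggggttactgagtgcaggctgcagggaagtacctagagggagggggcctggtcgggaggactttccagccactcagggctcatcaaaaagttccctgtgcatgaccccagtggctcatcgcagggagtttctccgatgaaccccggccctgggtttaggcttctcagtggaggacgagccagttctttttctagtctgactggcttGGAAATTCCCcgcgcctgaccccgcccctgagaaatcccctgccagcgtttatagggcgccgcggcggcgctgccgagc
Tnfaip3 (chr10:19015361-19015660, - strand): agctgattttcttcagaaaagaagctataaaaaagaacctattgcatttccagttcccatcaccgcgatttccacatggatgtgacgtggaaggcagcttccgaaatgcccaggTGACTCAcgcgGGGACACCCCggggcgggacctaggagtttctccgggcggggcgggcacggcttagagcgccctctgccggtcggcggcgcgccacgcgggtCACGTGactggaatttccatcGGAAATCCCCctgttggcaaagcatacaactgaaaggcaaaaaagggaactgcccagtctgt
Dusp1 (chr17:26508423-26508722, - strand): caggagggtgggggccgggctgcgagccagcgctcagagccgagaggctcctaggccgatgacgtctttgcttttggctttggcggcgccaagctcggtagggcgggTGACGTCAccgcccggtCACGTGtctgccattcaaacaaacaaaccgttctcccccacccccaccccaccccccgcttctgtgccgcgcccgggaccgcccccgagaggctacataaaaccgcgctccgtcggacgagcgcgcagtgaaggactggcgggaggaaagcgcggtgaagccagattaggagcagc
Egr2 (chr10:67537619-67537918, + strand): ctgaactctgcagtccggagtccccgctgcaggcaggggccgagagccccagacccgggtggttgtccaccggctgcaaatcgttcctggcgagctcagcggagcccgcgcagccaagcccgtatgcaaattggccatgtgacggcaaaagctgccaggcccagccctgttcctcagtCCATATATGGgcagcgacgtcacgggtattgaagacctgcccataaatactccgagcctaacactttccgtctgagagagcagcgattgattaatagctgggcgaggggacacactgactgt
Errfi1 (chr4:150854820-150855119, + strand): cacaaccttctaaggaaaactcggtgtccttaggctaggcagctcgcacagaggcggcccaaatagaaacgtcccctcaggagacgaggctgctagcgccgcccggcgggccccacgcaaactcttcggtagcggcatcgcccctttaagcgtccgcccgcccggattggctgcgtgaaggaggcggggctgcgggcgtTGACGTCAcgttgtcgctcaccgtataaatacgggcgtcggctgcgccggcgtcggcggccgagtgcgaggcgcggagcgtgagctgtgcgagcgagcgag
The match in Cxcl2 lies 97 bases before the start and reads as the NF-κB consensus on both strands, shifted by 1 base. Nfkbia has its NF-κB match 29 bases before the start, and Tnfaip3 has them 125 and 12 bases before, next to an AP-1 match. The CRE lies 143 bases before the start of Dusp1 and 51 before that of Errfi1, and Egr2 has a CArG match 72 bases before the start shown. Among 119 rising genes with a window, 16.8% held an NF-κB match, against 6.82% of 88 falling genes, 6.13% of 6577 tested genes and 5.14% of all 27025 genes in the table. The CArG box was in 4.2%, 1.14%, 1.49% and 1.81% of the same groups, the CRE in 7.56%, 2.27%, 3.92% and 2.03%, and AP-1 in 10.9%, 3.41%, 6.13% and 8.97%. E-boxes were in 13.4%, 9.09%, 12.3% and 8.09%. Txnip held none of these matches in its window. These shares are descriptions of letters in a short window.

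At the start of the pathway, transcripts of the receptors and adaptors moved little. None of the 4 detected receptor genes was called at 1 h. Tlr2 was at 12.44 and 12.17 in untreated cells and at 12.86 and 12.58 with P3C, so the groups did not overlap but the difference did not pass the test (0.41, SE 0.22, adjusted p = 0.529). Cd14, a co-receptor that hands lipopeptides and LPS to TLRs, gave 0.25, Tlr1 -0.06 and Tlr6 -0.17. Tlr1 and Tlr6 were dim, at 7.05 to 7.84 on the 4 arrays. Of 16 adaptors and kinases from TLR2 to NF-κB, none rose and 1 fell, with a median of 0.06. The one that fell was Tab1, a partner of the kinase TAK1 (-0.64, SE 0.16, adjusted p = 0.0472), yet the 3 other probes of Tab1 gave -0.05, -0.02 and -0.22 and were not called, and the call was lost without any 1 of the 4 arrays (adjusted p 0.129 to 0.309). Myd88 (0.16), Irak1 (-0.07), Traf6 (0.14) and Ikbkb (0.15) were not called.

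Genes of NF-κB subunits, and those listed as IκB proteins and ubiquitin editors, rose in larger part. Of the 4 subunits tested, 3 rose (median 0.66), namely Nfkb1 (0.82, SE 0.15, adjusted p = 0.00359), Rel (0.63) and Rela (0.52), while Relb was at 0.70 without passing the test. Under median scaling only Nfkb1 was called, with an adjusted p of 0.606 for Rel and 1.0 for Rela. Without P3C array B the adjusted p was 0.0793 for Nfkb1 and 0.065 for Rel, and for Rela it was 0.0841 without P3C array A and 0.072 without untreated array A. Of 12 genes listed as IκB proteins and ubiquitin editors, 7 rose and none fell (median 0.74), and 4 rose under median scaling. Beside Nfkbiz, those that rose included Nfkbid (2.24, SE 0.23), an atypical nuclear IκB, Tnfaip3 (1.61, SE 0.14), the A20 ubiquitin editor, and Tnip1 (1.38, SE 0.33), its binding partner. Nfkbia and Nfkbib (0.98 and 0.50), which encode the classical inhibitors IκBα and IκBβ, rose too. Tnfaip2 (1.53), named for its induction by TNF, was counted in this list though it is neither an IκB protein nor a ubiquitin editor. Tnfaip3 was at 7.0 and 7.01 untreated and at 8.61 on both P3C arrays (adjusted p = 3.69e-06). Tnip1 was not called without any 1 of the 4 arrays (adjusted p 0.103 to 0.25), and its 3 other probes ranged from 0.13 to 1.17. Another probe of Nfkbia gave 0.24 and was not called. Bcl3, Nfkbie, Tnip2, Cyld and Otulin were between -0.45 and 0.24 and not called.

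Of 22 early transcription factors tested, 13 rose, 1 fell and 8 were not called, with a median of 0.73. Over all genes 1.73% rose and 1.29% fell. Under median scaling 7 of the 22 rose and none fell. The zinc-finger factors Egr3, Egr1 and Egr2, classical targets of ERK signalling, rose by 3.34 (SE 0.17), 3.32 (SE 0.19) and 3.05 (SE 0.17). Egr1 was at 9.25 and 9.86 untreated and at 12.84 and 12.91 with P3C, and Egr2 moved from 7.01 and 7.21 to 10.29 and 10.05. A second probe of Egr3, detected on 2 of the 4 arrays, gave -0.08. Fosl2, a subunit of AP-1, went from 7.52 and 7.66 to 9.89 and 9.92 (2.31, SE 0.10, adjusted p = 1.52e-09). Its relatives Junb (1.81), Atf3 (1.00), Jun (0.77) and Fosb (0.32) rose as well. Fosb was not above background on either untreated array, so its rise was at least 1.11-fold, and its call was lost in 3 of the 4 fits without an array (adjusted p up to 0.3). Fos, another AP-1 subunit, was instead at 9.38 and 9.0 untreated and at 8.35 and 8.17 with P3C, a fall of 0.93 on the log2 scale (SE 0.15, adjusted p = 0.00207). Under median scaling Fos was at -0.82 and not called (adjusted p = 1.0), and in a fit of the 4 arrays alone the adjusted p was 0.0812. Ier3, which is listed with these factors but regulates cell survival, rose by 2.17 (SE 0.29), and Srf, the serum response factor itself, by 0.69, with its call lost without P3C array A, P3C array B or untreated array A (adjusted p up to 0.266). Klf6 (1.31), Myc (0.29), Irf1 (-0.27) and Cebpb (0.05) were not called.

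Some feedback inhibitors of MAP kinases and of messenger RNA rose at 1 h. Of 9 MAP kinase phosphatases and Sprouty relatives, 4 rose and none fell, against 1.73% and 1.29% of all genes. Dusp2, a nuclear phosphatase of ERK and p38, went from 7.63 and 7.78 to 10.94 and 11.13 (3.33, SE 0.14, adjusted p = 7.13e-10). Dusp1, the archetype of the family, moved from 7.96 and 8.37 to 10.43 and 10.45 (2.27, SE 0.15), Dusp4 rose by 2.10 (SE 0.15) and Dusp16, which acts on JNK, by 1.5 (SE 0.11). The other 5, Dusp3, Dusp6, Dusp7, Dusp8 and Spred1, lay between -0.43 and 0.28. Of 8 RNA decay factors and SOCS proteins, 3 rose. These were Socs3, an inhibitor of cytokine receptor signalling (2.32, SE 0.24), Zfp36, also known as tristetraprolin, which destabilizes Tnf messenger RNA (2.31, SE 0.21), and Zc3h12a, the RNase Regnase-1 (1.85, SE 0.20). Zfp36 was at 8.72 and 8.89 untreated and at 11.11 and 11.13 with P3C.

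Part of the chemokines and cytokines rose at this time. Of 10 chemokines, 5 rose, against 1.73% of all genes. Ccl4, a chemokine of activated macrophages, was already bright at 11.14 and 11.52 and reached 14.24 and 14.18 (2.88, SE 0.14, adjusted p = 6.12e-09), and Ccl3 rose by 2.14 (SE 0.23). Cxcl10, an attractant of T cells, went from 7.29 and 7.64 to 9.19 and 9.17 (1.72, SE 0.25, adjusted p = 0.000677), while a probe of Cxcl10 that was detected on none of the 4 arrays gave -0.06. Ccl2, which attracts monocytes, rose by 0.66 (SE 0.11), and the adjusted p was 0.639 under median scaling. Ccl9 (0.71), Ccl5 (0.52), Cxcl16 (0.28), Ccl7 (0.19) and Cxcl9 (-0.01) were not called. Of 21 cytokines and growth factors, 5 rose, and the median was 0.21. Tnf went from 9.05 and 9.39 to 12.17 and 12.29, 8.04-fold (3.01, SE 0.20, adjusted p = 1.03e-07), with a second probe at 3.17. Il1b was not above background in untreated cells (6.78 and 6.73) and reached 9.68 and 9.74, at least 7.11-fold (adjusted p = 4.84e-08). Il1a was likewise not above background untreated (6.66 and 6.67) and at 7.92 on both P3C arrays, at least 2.06-fold. Under median scaling Il1a was not called (adjusted p = 0.0511), and 4 of the 21 rose. Osm, a cytokine of the IL-6 family, rose by 2.31 (SE 0.15), with a second probe at 0.31, and Tnfsf9, the ligand of 4-1BB, by 2.26 (SE 0.23). Il6 (0.01), Il10 (0.12), Il23a (0.13), Csf2 (0.10) and Ifnb1 (0.28) were not called.

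Genes induced by interferon changed little at 1 h. Of 22 tested, only Cxcl10 was called, which is 4.55% against the 1.73% of all genes, and the median was -0.00. Rsad2 (0.75), Oasl1 (0.40), Isg15 (0.25), Ifit3 (0.11), Irf7 (0.05) and Mx1 (0.04) did not pass the test.

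Surface molecules and enzymes of activated macrophages rose in part. Of 19 surface molecules, 7 rose and none fell, against 1.73% and 1.29% of all genes, with a median of 0.40. After Cd83 the largest were Ccrl2, a chemerin-binding receptor (2.03, SE 0.22), Gpr84, a receptor of medium-chain fatty acids (1.90, SE 0.19), Clec4e, the lectin Mincle (1.75, SE 0.21), Icam1, an adhesion molecule for leukocytes (1.46, SE 0.21), and the costimulatory receptor Cd40 (1.41, SE 0.16). Itga5 was at 1.86 but did not pass (adjusted p = 0.133), and Cd80 and Cd86 were at 0.01 and 0.02. Under median scaling 5 of the 19 surface molecules rose, without Icam1 (adjusted p = 0.388). Of 16 members of the enzyme list, 5 rose, but under median scaling only Acod1 was called. Acod1, which makes itaconate, rose by 1.82 (SE 0.18, from 9.03 and 9.41 to 11.04 on both P3C arrays) and Srxn1, a sulfiredoxin, by 1.23. Odc1, the first enzyme of polyamine synthesis, rose by 0.80 and Slc7a11, the cystine transporter, by 0.69. Marcksl1, a membrane-bound regulator of actin and not an enzyme, rose by 2.0 (SE 0.35, adjusted p = 0.00297), and all 3 of its other probes were called at 1.12 to 1.57. Without untreated array B the adjusted p of Marcksl1 was 0.053, and under median scaling it was 0.26, beside 0.438 for Srxn1, 0.252 for Odc1 and 0.461 for Slc7a11. Saa3, an acute-phase apolipoprotein (0.50, adjusted p = 0.24), Nos2 (0.03) and Sod2 (0.33) were not called.

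Of 19 regulators of survival and death tested, 6 rose and none fell, against 1.73% and 1.29% of all genes. Under median scaling 4 of the 19 rose. Traf1, which scaffolds survival signals of the TNF receptor family, went from 7.57 and 7.53 to 10.55 and 10.59 (3.02, SE 0.18, adjusted p = 2.85e-08), with a second probe at 1.04. Bcl2l11, the pro-apoptotic protein Bim, went from 7.83 and 7.82 to 9.43 and 9.60 (1.69, SE 0.12). The stress genes Ppp1r15a (1.81, SE 0.18), Gadd45a (1.51) and Gadd45b (1.14) rose, and so did Bcl10 (0.58), which lost its call without any 1 of the 4 arrays (adjusted p up to 0.176). Gadd45b lost it without P3C array B, untreated array A or untreated array B (adjusted p 0.177, 0.0833 and 0.106). Mcl1 (0.53), Bcl2l1 (0.11) and Casp8 (0.07) were not called. Of 18 members of the list of inducible kinases, which also holds regulators of small G proteins, 6 rose and 2 fell, and under median scaling 3 rose and none fell. Plk2, a stress-induced polo-like kinase, rose by 1.86 (SE 0.16), and Rapgef2 (0.86), Rgs1 (0.78), Rasgef1b (0.73) and Ikbke (0.36) rose by less. Pim1 was not above background in untreated cells and rose by at least 1.13-fold. The kinases that fell were Sgk1 (-0.62, SE 0.13, adjusted p = 0.0184) and Map3k14 (-0.52), the kinase NIK of the alternative NF-κB pathway. Rgs1, Pim1, Ikbke and Map3k14 lost their calls without any 1 array (adjusted p 0.0835 to 0.306), Rasgef1b in 3 of the 4 such fits, and Sgk1 in the 3 fits without P3C array A, P3C array B or untreated array B.

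**Figure D3:**
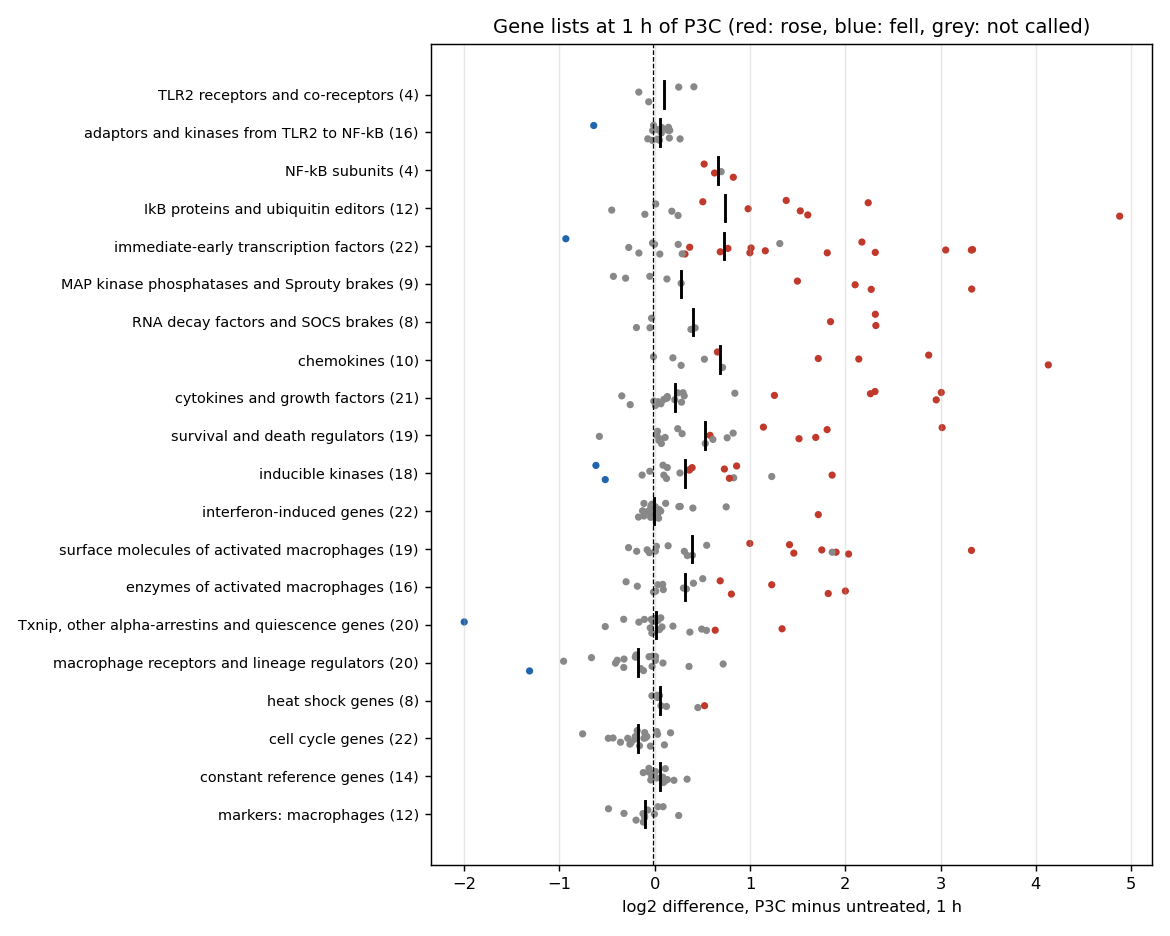
Log2 difference between P3C and untreated cells at 1 h (horizontal) for every tested member of 20 lists, with the number tested in brackets, red for genes that rose, blue for genes that fell and grey for the rest. Black bars are list medians, from -0.17 for cell cycle genes to 0.74 for IκB proteins and ubiquitin editors, and the dashed line is the median of all genes at -0.01.

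The falls were led by Txnip, which slows glucose uptake and binds thioredoxin. Txnip was at 11.13 and 11.71 untreated and at 9.39 and 9.45 with P3C, 4.0-fold lower (-2.0, SE 0.32, adjusted p = 0.00146), and its second probe fell by 1.85. The related arrestins Arrdc1 to Arrdc4 lay between -0.17 and 0.06 and were not called. In the same list of 20 growth-arrest genes, Cdkn1a, the cell cycle inhibitor p21, rose by 1.34 (SE 0.17) and Id3 by 0.63, with an adjusted p of 0.0589 for Id3 without P3C array A. Under median scaling neither was called (adjusted p 0.133 and 1.0), and in the fit of the 4 arrays alone the adjusted p of Cdkn1a was 0.0539. Gpr183, a receptor for oxysterols that guides migration, went from 9.98 and 9.86 to 8.62 and 8.59 (-1.31, SE 0.11, adjusted p = 2.7e-06), and it was the only called member of 20 macrophage receptors and lineage regulators. Lhfpl2 went from 10.25 and 10.12 to 9.04 and 9.01 (-1.16, SE 0.08, adjusted p = 1.03e-07). Nrros, which anchors latent TGF-β and limits reactive oxygen in phagocytes, was at 10.67 and 10.46 untreated and at 9.65 and 9.70 with P3C (-0.89, SE 0.09). Tlr4, the LPS receptor, and its adaptor Ticam2, both named here after their values were seen, fell by 0.66 (SE 0.08, adjusted p = 0.000173) and 0.40 (SE 0.09, adjusted p = 0.0299). Tlr4 went from 8.47 and 8.34 to 7.77 and 7.71, with a second probe that fell by 0.37, and Ticam2 lost its call without any 1 array (adjusted p up to 0.336).

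The remaining large falls differed in how firmly they were measured. Rab40c (-0.96), a Rab protein with a SOCS box, Fam78a (-0.95) and Pla2g15 (-0.76), a lysosomal phospholipase, kept their calls without each of the 4 arrays in turn. Snx11, 0610012G03Rik, Riox1, Tmem160, Lyl1 and Imp3 (-0.87 to -0.76) kept it in none of those fits (adjusted p 0.0527 to 0.397), and the kinase Dyrk3 (-0.80) lost it without P3C array B (adjusted p = 0.108) or untreated array A (0.128). Of the 111 genes that fell, 7 were called under median scaling, Txnip and Fam78a among them. Gpr183 (-1.17) and Lhfpl2 (-0.98) were not (adjusted p 0.0531 and 0.425). Rab40c (-0.85, adjusted p = 0.462), Nrros (-0.69) and Pla2g15 (-0.66) were not called under it either. None of 22 cell cycle genes was called (median -0.17), and of 8 heat shock genes only Dnajb1 rose (0.52), with its call lost in 3 of the 4 fits that left out an array.

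P3C was next set against the other ligands at the same time. At 1 h no gene was higher with P3C than with LPS (0% of those tested, 180 genes at an unadjusted p under 0.05 in either direction) and 18 were lower (0.209%). Among these were Cxcl10 and Oasl1 of the interferon list, the interferon gene Ifnb1 and several of the feedback genes described above. The doses of P3C and LPS are in different units, so the values stand side by side without a match of dose. Both P3C arrays shared a slide with an LPS array, so that each difference could also be taken within a slide. Cxcl10 was at 9.19 and 9.17 with P3C and at 11.83 and 11.82 with LPS, a difference of -2.64 (SE 0.25, adjusted p = 6.54e-05) that was -2.63 and -2.65 within the slides. Oasl1, an interferon-stimulated antiviral gene, was at 8.91 and 8.87 with P3C and 10.68 and 10.80 with LPS (-1.86, SE 0.19, adjusted p = 0.000141). Ifnb1, the interferon-β gene, was detected on 1 of the 2 P3C arrays and on both LPS arrays, at 6.89 and 6.96 against 8.15 and 8.04 (-1.17, SE 0.15, adjusted p = 0.000762). Trex1 (-1.25) and Ccl5 (-1.5) were lower too.

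The feedback genes Dusp1 (-1.73, SE 0.15, adjusted p = 2.61e-05), Tnfaip3 (-1.62), Ppp1r15a (-1.84), Zfp36 (-1.20), Nfkbia (-0.99) and Dusp2 (-0.93) rose with P3C against untreated cells but stood below their LPS level. Dusp1 was at 10.43 and 10.45 with P3C and at 12.07 and 12.26 with LPS, and within the slides it was lower by 1.65 and 1.81 on the log2 scale. Among cytokines, Il1a (-1.61, SE 0.13), Tnf (-1.14, SE 0.20) and Il1b (-1.11) were lower, and the list ended with Acod1 (-1.23), Egr2 (-0.99), Csrnp1 (-1.53) and Fos. Fos was at 8.35 and 8.17 with P3C and at 9.53 and 9.58 with LPS (-1.30, SE 0.15, adjusted p = 0.000587), and its difference from untreated cells with LPS, 0.36, was not called (adjusted p = 0.333). In all, 13 of the 18 had also risen with P3C against untreated cells. The count was 11 without P3C array A, and Acod1, Egr2 and Tnf lost their calls without any 1 of the 4 arrays (adjusted p 0.0587 to 0.351). Zfp36 and Il1b lost theirs in 3 of the 4 fits (adjusted p up to 0.329 and 0.178) and Dusp2 and Trex1 in 2 (up to 0.129 and 0.11), so that 11 of the 18 were called without each array. Under median scaling 5 genes were called lower, 4 of them among the 18. In a fit of only the arrays compared, 9 of the 18 were called. Slide as a fixed factor, chosen after seeing the data, gave 11 higher and 38 lower genes and slide as a random block 16 higher and 47 lower, with all 18 called in both.

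Against R848, at the same molar dose, no gene was higher (0%, 106 genes at an unadjusted p under 0.05 in either direction) and 3 were lower with P3C (0.0348%). Itpkc, a kinase of inositol trisphosphate, was at 7.97 and 7.96 with P3C, at 9.24 and 9.33 with R848 and at 8.17 and 8.30 with LPS, so that its difference from R848 was -1.32 (SE 0.11, adjusted p = 5.77e-05). Il1a followed (-1.07, SE 0.13, adjusted p = 0.00367) and then Stx11, a syntaxin of secretory cells (-0.70, SE 0.10, adjusted p = 0.0184). The arrays of replicate A shared a slide, where Itpkc, Il1a and Stx11 differed by -1.27, -1.17 and -0.59. Without P3C array A or without P3C array B only Itpkc was called, and under median scaling none of the 3. With slide as a random block 9 genes were lower and with slide as a fixed factor 5, where Stx11 was not called (adjusted p = 0.06). Cxcl10 and Oasl1, which stood below LPS, differed from R848 by 0.04 and 0.05. Beside untreated cells, whose arrays all 3 comparisons share, Nfkbiz was at 4.88 with P3C, 5.11 with LPS and 5.16 with R848, Errfi1 at 4.53, 4.89 and 4.84, Egr3 at 3.34, 3.16 and 3.24, Ccl4 at 2.88, 3.17 and 3.03, and Gpr183 at -1.31, -1.03 and -1.28. Txnip was at -2.0, -2.81 and -2.57.

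**Figure D4:**
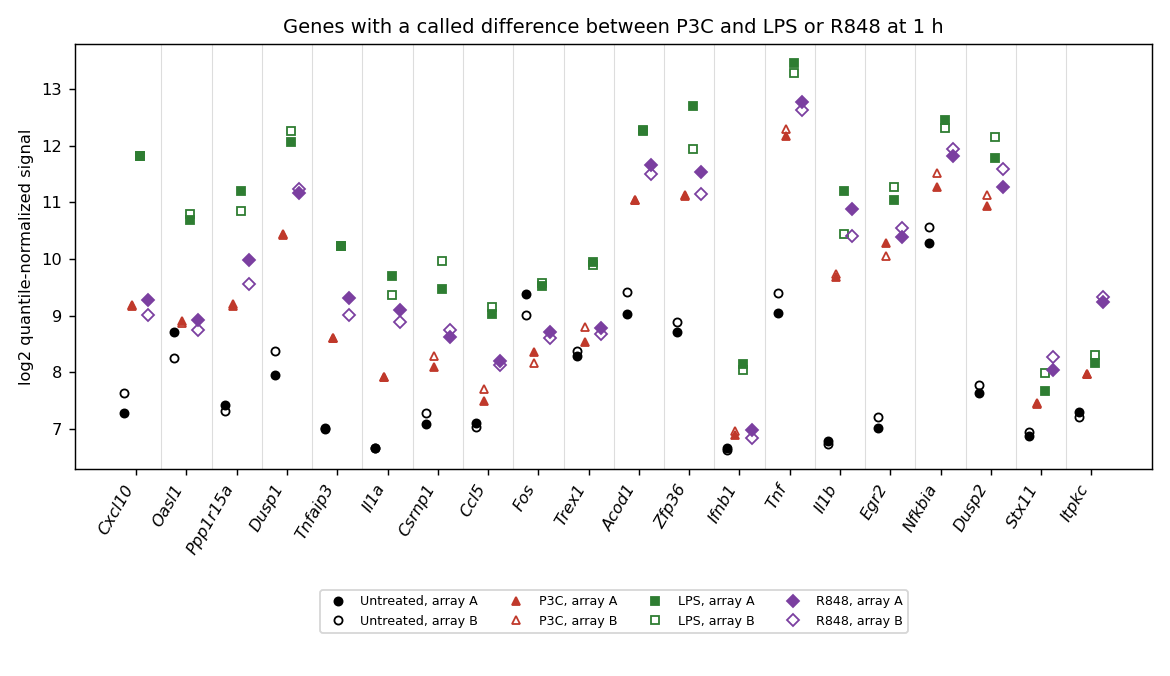
Log2 signal (vertical) of the 20 genes called between P3C and LPS or between P3C and R848 at 1 h, in untreated cells (black), P3C (red), LPS (green) and R848 (purple), array A filled and array B open. Both P3C arrays lie below both LPS arrays in 18 genes from Cxcl10 to Dusp2, and Itpkc is highest with R848 at 9.24 and 9.33.

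The P3C response at 1 h was then compared with the responses at 2 and 4 h, each against untreated cells of its own time. The change itself was tested. No slide held a P3C array together with an untreated array of its own time. A slide difference and a change of the response therefore cannot be told apart. From 1 to 2 h, 39 genes (0.452%) had a higher and 36 (0.418%) a lower difference, and from 1 to 4 h 151 (1.75%) and 101 (1.17%). The 1 h arrays enter both sides of these tests and also chose the genes called at 1 h. Among the 149 genes that had risen at 1 h, 15 changed upward and 27 downward by 4 h. Among the 111 that had fallen, 8 changed upward and 2 downward. Of the 8362 genes not called at 1 h, 128 changed upward and 72 downward. Leaving out 1 of the 8 arrays in turn gave 13 to 30 higher and 15 to 35 lower genes for 1 to 2 h and 87 to 114 and 52 to 67 for 1 to 4 h. For 1 to 2 h the count in 1 or both directions was lower by over 1.5 times without each of the 4 arrays of 1 h, without either P3C array of 2 h or without untreated array B of 2 h, and for 1 to 4 h without any of the 8. Median scaling left 2 higher and 3 lower genes, and 22 and 10.

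Of 22 early transcription factors, 4 had a lower difference at 4 h than at 1 h and none a higher one, and of 9 phosphatases and Sprouty relatives 2 had a lower and 1 a higher one. Over all genes 1.17% had a lower and 1.75% a higher one. Errfi1 went from 4.53 at 1 h to 1.09 at 2 h and 1.29 at 4 h, and on the 2 h arrays it was at 9.24 and 8.95 with P3C and 7.97 and 8.04 without. Egr1 went from 3.32 to 0.20 and then 1.95, and was not called at 2 h (adjusted p = 0.687), where P3C arrays at 9.34 and 9.69 overlapped untreated arrays at 9.13 and 9.50. Egr2 (3.05, 0.98 and 0.53 at 1, 2 and 4 h), Egr3 (3.34, 1.90 and 0.58), Fosl2 (2.31, 0.17 and 0.66) and Dusp1 (2.27, 0.70 and 0.34) declined over the same hours. Nfkbiz remained high, at 4.88, 3.5 and 3.48. Bcl2l11 was at 1.69, 1.26 and 0.20 and Dnajb1 at 0.52, -0.22 and -0.51.

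Of 21 cytokines, 7 had a higher difference at 4 h than at 1 h and none a lower one, and of 10 chemokines 3 and none. Over all genes the shares were 1.75% and 1.17%. Il1b was not above background in untreated cells at any of the 3 times, so its differences of 2.95, 3.27 and 4.86 are of measured signals only, and with P3C it was at 11.51 and 11.60 at 4 h. Tnf was at 3.01, 3.08 and 4.57, Ccl2 at 0.66, 0.84 and 2.85 and Acod1 at 1.82, 2.36 and 3.76. Cxcl2 was at 4.13, 2.65 and 5.77, and its change from 1 to 2 h was not called. Tnfsf9 and Osm had lower differences at 2 h than at 1 h (-1.90 and -0.97, adjusted p 0.0117 and 0.046), with the calls lost in 4 and 7 of the 8 fits without an array. Saa3, not called at 1 h, was at 0.50, 1.00 and 2.27. Of the 4 lipopeptide receptors and co-receptors, Tlr1 (-0.06, 0.27 and 0.59) and Tlr6 (-0.17, 0.10 and 0.65) had a called change from 1 to 4 h, while Tlr2 (0.41, 0.95 and 0.59) had none. Nrros, which had fallen at 1 h, was at -0.89, 0.02 and 0.60, and Sgk1 at -0.62, -0.62 and 0.61, while Gpr183 fell at each time (-1.31, -1.77 and -1.79). Txnip was at -2.0, -0.85 and -0.47 and was not called at 2 or 4 h (adjusted p 0.168 and 0.448), and its change from 1 to 4 h did not pass the test (1.53, SE 0.45, adjusted p = 0.103).

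**Figure D5:**
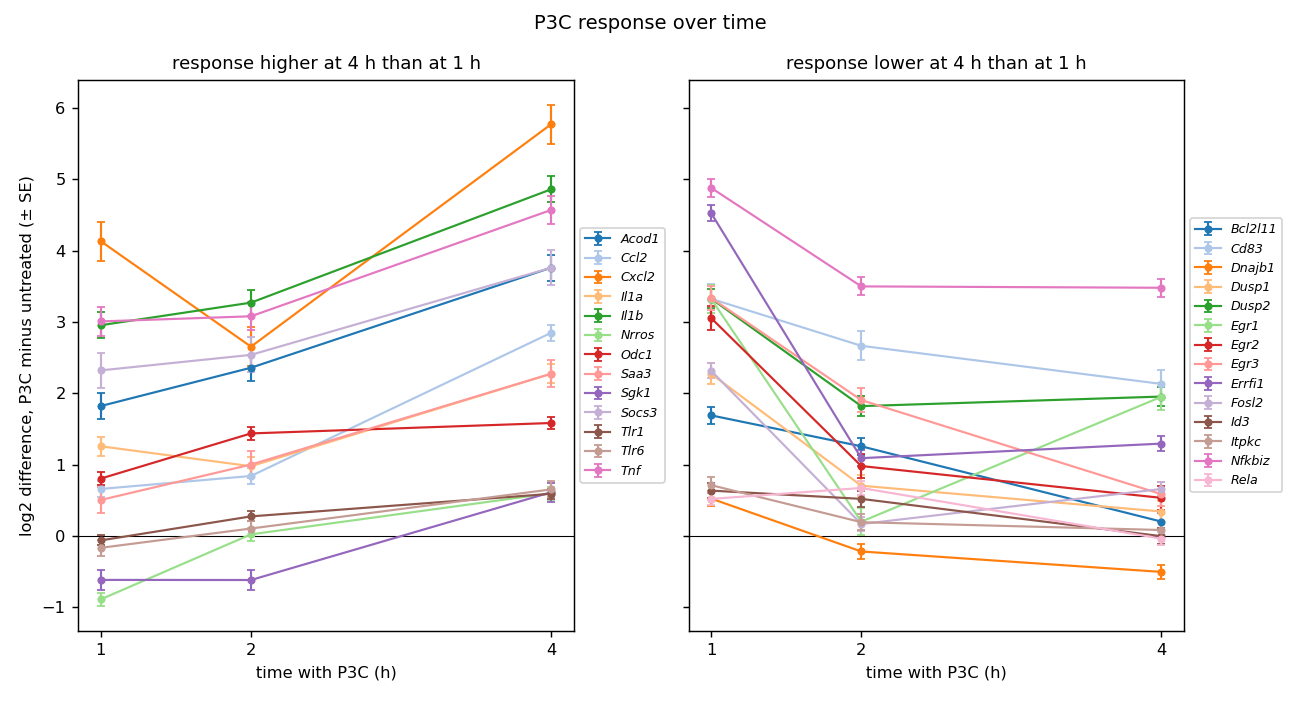
Log2 difference between P3C and untreated cells of the same time (vertical, ± SE from the fit) at 1, 2 and 4 h for the 27 named genes whose response changed from 1 to 4 h, split into those higher at 4 h (left, 13 genes) and lower at 4 h (right, 14 genes). Il1b and Tnf climb to 4.86 and 4.57, while Errfi1 drops from 4.53 to 1.09 by 2 h.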

How the data were processed

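RNA of RAW264.7 cells was hybridized to Illumina mouse bead arrays. The paper's methods name them MouseRef-8, and that name was not checked against the probes. The authors deposited raw signal intensities of 45281 probes, each with its detection p-value (GenomeStudio 2011.1, per the submitters' processing notes), together with their own normalized log2 values of 23937 probes, an alternative here. The main values start from the intensities of every probe, taken to log2 and quantile-normalized across the 24 arrays, with background left in. A probe entered when both arrays of any of the 12 groups gave it a detection p-value below 0.01. A gene was read from its brightest named probe (8622 genes, of which 2810 had more than 1 such probe). Quantile normalization makes differences relative to the other genes.

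Groups of ligand and time were fitted together in limma 3.58.1 (R 4.3.3), since each has 2 arrays. A permutation test of 2 against 2 arrays cannot go below p = 0.333. The number of arrays limits the precision. Adjusted p-values rest on the spread between duplicate arrays, pooled over the 12 groups. They do not cover a slide difference between P3C and untreated arrays of 1, 2 or 4 h. "At least" folds apply where no array of a group exceeded background, against the lowest signal that passed detection. Probe names came from the array annotation (16512 probes matched by gene identifier, 1422 by accession, 2035 not matched). The fit was tested on simulated data. Promoters are RefSeq windows, listed for 119 of 149 rising genes, and motifs were searched in Python 3.11.15. Nfkbiz, Egr3 and Cd83 have no entry in that table.

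Named genes were the study's own response genes, the TLR2 receptors, up to 5 called members of each list, and the 15 largest rises and falls. The rises and falls had to have both P3C arrays beyond both untreated arrays. The largest differences from LPS and R848 and over time were named too. Exceptions, chosen after their values were seen, are Tlr4, Ticam2, the further list members given to complete a count, and the genes of the closing observations. The members and lists were chosen with earlier results of these data known. Alternatives were other normalizations, filters, probe rules, blocks and arrays left out.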

Additional observations from a re-analysis of the deposited data

Results flagged for a closer look

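The P3C response differed between time points by a test of the difference itself (limma, adjusted p under 0.05). That test cannot separate a slide difference from a change of the response. From 1 to 2 h the difference between P3C and untreated cells became higher in 39 genes and lower in 36, and from 1 to 4 h higher in 151 and lower in 101. Among named genes the change from 1 to 4 h, on the log2 scale, was upward for the cytokines and chemokines Ccl2 (2.19), Il1b (1.91), Cxcl2 (1.64), Tnf (1.56) and Il1a (1.02). Il1a and Il1b were not above background in untreated cells at either time, so their changes are of measured signals. It was also upward for Acod1 (1.94), Saa3 (1.77), Nrros (1.49), Socs3 (1.44), Sgk1 (1.23), Tlr6 (0.82), Odc1 (0.78) and Tlr1 (0.65).

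Downward changes were found for Errfi1 (-3.23), the factors Egr3 (-2.75), Egr2 (-2.52), Fosl2 (-1.66), Egr1 (-1.37), Id3 (-0.64) and Rela (-0.56), and the phosphatases Dusp1 (-1.93) and Dusp2 (-1.37). Bcl2l11 (-1.49), Nfkbiz (-1.40), Cd83 (-1.19), Dnajb1 (-1.03) and Itpkc (-0.63) changed downward too. Of these 27 genes, 21 kept the call without each of the 8 arrays in turn. Cd83, Cxcl2, Id3 and Itpkc lost it without any 1 of them (adjusted p up to 0.196), Socs3 in 7 of the 8 fits and Rela in 6. Under median scaling 6 of the 27 were called.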

How the results depend on the processing

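Median scaling gave 56 higher and 8 lower genes for P3C against untreated cells, 5 lower than LPS, 0 lower than R848, 2 higher and 3 lower from 1 to 2 h, and 22 and 10 from 1 to 4 h. Fits of only the arrays compared gave 95 and 32, 9, 1, and 5 and 6 (1 to 2 h). Pooling the untreated arrays gave 245 and 297. Slide as a random block gave 16 higher and 47 lower than LPS and 9 lower than R848; as a fixed factor (chosen after seeing the data) 11 and 38, and 5. At adjusted p under 0.01, 46 genes fell with P3C, 13 rose and 15 fell from 1 to 2 h, and 86 and 47 from 1 to 4 h. At 2-fold or more the counts were 71 and 3, 15 and 17, and 77 and 28. Leaving out 1 array gave 94 to 103 higher and 36 to 62 lower against untreated, 0 to 1 and 11 to 14 against LPS, 1 to 3 lower than R848, 13 to 30 and 15 to 35 from 1 to 2 h, and 87 to 114 and 52 to 67 from 1 to 4 h.

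Against untreated cells at 1 h, none of the 80 genes named by rule changed direction under any setting. Of the 260 called genes, 1 did (Ccdc85b, -0.61 on its brightest probe, 0.29 on the mean of its probes). The setting with every probe on its own read these genes from the same brightest probe, so it could not change a direction. Replicate letters are not stated to mark a shared batch. The replicate block kept 259 of the 260 calls, and the A minus B differences of P3C and untreated arrays correlated at 0.354 (-0.647 to 0.847 over all pairs of groups). Of the called genes, 9 that rose were not above background in untreated cells and 3 that fell were not with P3C, so only bounds hold for them. The cause of these differences was not tested.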

Other observations

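Some genes that moved with P3C at 1 h lie outside the lists and were chosen after their values were seen. Nlrp3, the sensor of an inflammasome, was at 6.84 and 6.85 untreated, not above background on this probe, and at 8.23 and 8.19 with P3C. The difference in measured signal was 1.36 (SE 0.07, adjusted p = 7.54e-09), and it was at 1.51 with LPS and 1.16 with R848. Sertad1, a regulator of CDK4 and E2F, rose by 2.11 (SE 0.19), Hilpda, a lipid droplet protein, by 1.93 (SE 0.15) and Srgn, the core protein of secretory granule proteoglycan, by 1.30 (SE 0.21). Il7r, a cytokine receptor chain of lymphocytes, rose by 0.95 (SE 0.13), with a second probe at 0.41 that was not called. Mdm2, which targets p53 for degradation, rose by 0.99 (SE 0.22, adjusted p = 0.0214) beside the rise of Cdkn1a, but was called in only 1 of the 4 fits that left out an array. The cannabinoid receptor Cnr2 fell by 0.65 (SE 0.10).

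Zinc-finger genes with symbols in Zfp, Zkscan, Zscan or Zbtb, also chosen after seeing the data, numbered 177, of which 2 rose (Zfp36 and Zfp330) and 9 fell, or 5.08% against 1.29% of all genes. Their median was -0.06. Of all 111 genes that fell, 7 were called under median scaling, and these 9 were not examined separately.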
